A study of Mus musculus with 6 samples.

Results

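Smooth muscle cells and pericytes wrap the arterioles and capillaries that supply a sensory ganglion, and 10 genes that mark them were followed in lumbar dorsal root ganglia (DRGs) with and without HDAC4 in nociceptors. The genes are *Acta2*, *Myh11*, *Tagln*, *Cnn1* and *Des*, which encode parts of the contractile apparatus and cytoskeleton, and *Rgs5*, *Pdgfrb*, *Kcnj8*, *Abcc9* and *Notch3*, which encode signaling proteins and channel subunits of mural cells. They were a named list, found by gene symbol among the 22180 genes that had a probe set with 1 symbol, of 41345 probe sets in all, and all 10 were found. Where a gene had several such probe sets, the one with the highest mean over all 6 arrays was selected. That mean is the only measured value that the choice of probe set used. The list itself was chosen with earlier results of these data known.

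The series compares naïve adult mice of 2 genotypes, both labeled C57Bl/6 (by the methods, lines crossed back to C57Bl/6J until nearly congenic), with 3 arrays of each. HDAC4 fl/fl animals, which carry the floxed allele without Cre, are the wild-type littermates, and HDAC4 Nav1.8 cKO animals carry the same floxed allele with Cre driven by Nav1.8, a sodium channel of small, mainly nociceptive neurons. The deletion is therefore directed at neurons and not at the vessel wall. Total RNA of whole ganglia, taken after perfusion with saline, was read on Affymetrix Mouse Gene 2.0 ST arrays, and values are log2 signals after the robust multichip average (RMA), so a step of 1 is a doubling. Differences are log2 fold changes, cKO minus wild-type, tested 2-sided with limma, with Benjamini-Hochberg adjustment across the whole table. The labels do not say whether each sample was a separate animal, and the p values reflect the spread among the 6 samples alone, which may be technical. In whole ganglia, fewer mural cells and less RNA per mural cell cannot be told apart.

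Contraction of vascular smooth muscle is driven by smooth muscle actin and myosin, and most genes of this apparatus are switched on by serum response factor (SRF) with its coactivator myocardin, through a promoter element called the CArG box. MEF2 factors, to which HDAC4 is known to bind as a corepressor, also act on muscle genes. Pericytes are recruited to capillaries by platelet-derived growth factor B from endothelium acting on PDGFRβ, are kept in a mature state by Jagged and Notch3 signaling, and carry a vascular ATP-sensitive potassium (KATP) channel that couples their tone to metabolism.

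Promoter windows of 300 bases, from 250 before to 50 after the RefSeq start site in mouse build GRCm38.p6, were at hand for 7 of the 10 genes (*Acta2*, *Cnn1*, *Des*, *Rgs5*, *Kcnj8*, *Abcc9* and *Notch3*), and 3 of them are shown because they carry the elements named above or belong to the gene with the widest spread over arrays. *Acta2* is shown for its CArG-like elements at chr19:34255374-34255473 on the minus strand, from -100 to -1, with both elements in capitals. *Des* is shown at chr1:75360192-75360291 on the plus strand, also from -100 to -1, with its E-box in capitals. *Abcc9* is shown at chr6:142702273-142702334 on the minus strand, from -60 to 2, with its MEF2 site in capitals. For *Acta2* and *Abcc9* the annotated gene begins further upstream than this start site.
Acta2: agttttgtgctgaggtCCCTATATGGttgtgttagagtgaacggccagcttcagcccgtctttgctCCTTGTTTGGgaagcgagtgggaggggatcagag
Des: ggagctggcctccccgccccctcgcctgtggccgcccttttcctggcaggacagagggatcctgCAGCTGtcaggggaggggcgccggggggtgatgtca
Abcc9: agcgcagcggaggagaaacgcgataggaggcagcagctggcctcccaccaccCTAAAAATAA

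Both strands of all 32851 windows were searched. The strict CArG box, a CC and a GG around A and T bases only, was in 1.63% of windows and in 0 of the 7. With 1 central base allowed to be G or C, a form added after the windows had been read, it was in 8.5% of windows and of the 7 only in *Acta2*, at -84 to -75 and at -34 to -25. The MEF2 site was in 3.19% of windows and of the 7 only in *Abcc9*, at -8 to 2, across the start site. An E-box, CACGTG or CAGCTG, was in 22.2% of all windows and in *Acta2*, *Des*, *Rgs5* and *Abcc9*, that of *Des* lying at -36 to -31. TGGGAA, the core to which the Notch partner RBPJ binds, was in 25.6% of windows and in *Acta2*, *Kcnj8* and *Abcc9*; in *Acta2* it lies at -27 to -22 and overlaps the nearer CArG-like element. GGGCGG was in 35.7% of windows and in *Des*, *Abcc9* and *Notch3*, and TATAAA in 13.6% and in 0 of the 7. These matches describe letters in the windows and were not set against the array values.

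The 6 arrays had medians of 6.43 to 6.50 and pairwise correlations of 0.987 to 0.994 over probe sets. *Hdac4* read 9.22, 9.49 and 9.19 in the wild-type arrays, replicates 1 to 3 in that order as throughout, and 9.17, 9.14 and 9.21 in the cKO arrays. Its log2 fold change was -0.13 ± 0.10 (standard error, limma adjusted p = 0.776), and whether its probe set covers the floxed exons was not analysed here. The paper reports reduced HDAC4 in cKO ganglia by RT-qPCR, both for the floxed exons and for exons outside them, and by Western blot. Residual expression, in its view, likely comes from cells that Cre does not target. Sex-linked genes split the arrays: *Xist* read 11.60 to 11.74 in all wild-type arrays and cKO replicate 1, and 6.67 and 5.95 in cKO replicates 2 and 3, in which the Y-linked *Uty* read 9.26 and 9.01 against 4.31 to 4.59 elsewhere. The labels give no sex and the methods describe matched groups, so sex is inferred here from these genes alone, and with it as a covariate the comparison is cKO replicate 1 against the 3 wild-type arrays. Markers of other tissue differed between arrays as well. The log2 fold changes of all 18 skeletal muscle markers were positive (median 0.96, 0 at an adjusted p under 0.05). At an unadjusted p under 0.05, 10 of the 18 were higher, against 2.67% of all genes. Without overlap between groups 6 were higher, against 6.3% of all genes. With sex as a covariate all 18 were positive as well, with a median of 0.72. Their mean level ran from 6.66 to 8.14 in the wild-type and from 8.06 to 8.74 in the cKO arrays.

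Between the cKO and the wild-type arrays the mural genes differed little, apart from *Des*. Inferred sex also differs between the wild-type arrays and cKO replicates 2 and 3. No member passed an adjusted p of 0.05, as no probe set of the 41345 did (0%; 3081 were under 0.05 before adjustment, and the smallest adjusted p was 0.417). Of the 10 genes, 9 had a positive log2 fold change and *Rgs5* a negative one, beside 50.7% positive among all genes. The list was chosen with earlier results of these data known. Shares of all genes, here and below, are therefore a description and no test of the list. Their median was 0.11, and 0.11 without *Des* as well, beside 0.003 for all genes. Except for *Des*, at 0.81, all lay within 0.3 of 0. The 95% interval of the difference stayed inside ±0.5 in 7 genes and inside ±1 in 9, so that a doubling or halving lies outside the interval for every member but *Des*.

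At an unadjusted p under 0.05, 1 member was higher (*Des*) and 0 lower, where 2.67% of all genes were higher and 2.8% lower. The cKO arrays lay above all wild-type arrays, without overlap, for 4 of the 10 (*Tagln*, *Des*, *Kcnj8* and *Abcc9*), against 6.3% of all genes, and below them for 0, against 7.4%. The gaps between the groups in these 4 genes were 0.01 for *Tagln*, 0.02 for *Kcnj8*, 0.04 for *Abcc9* and 0.07 for *Des*, on values deposited to 2 decimals. The highest of the 6 arrays was cKO replicate 2 or 3, the samples with Y-linked signal, for 9 of the 10 genes, against 37.5% of all genes.

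**Figure D1:**
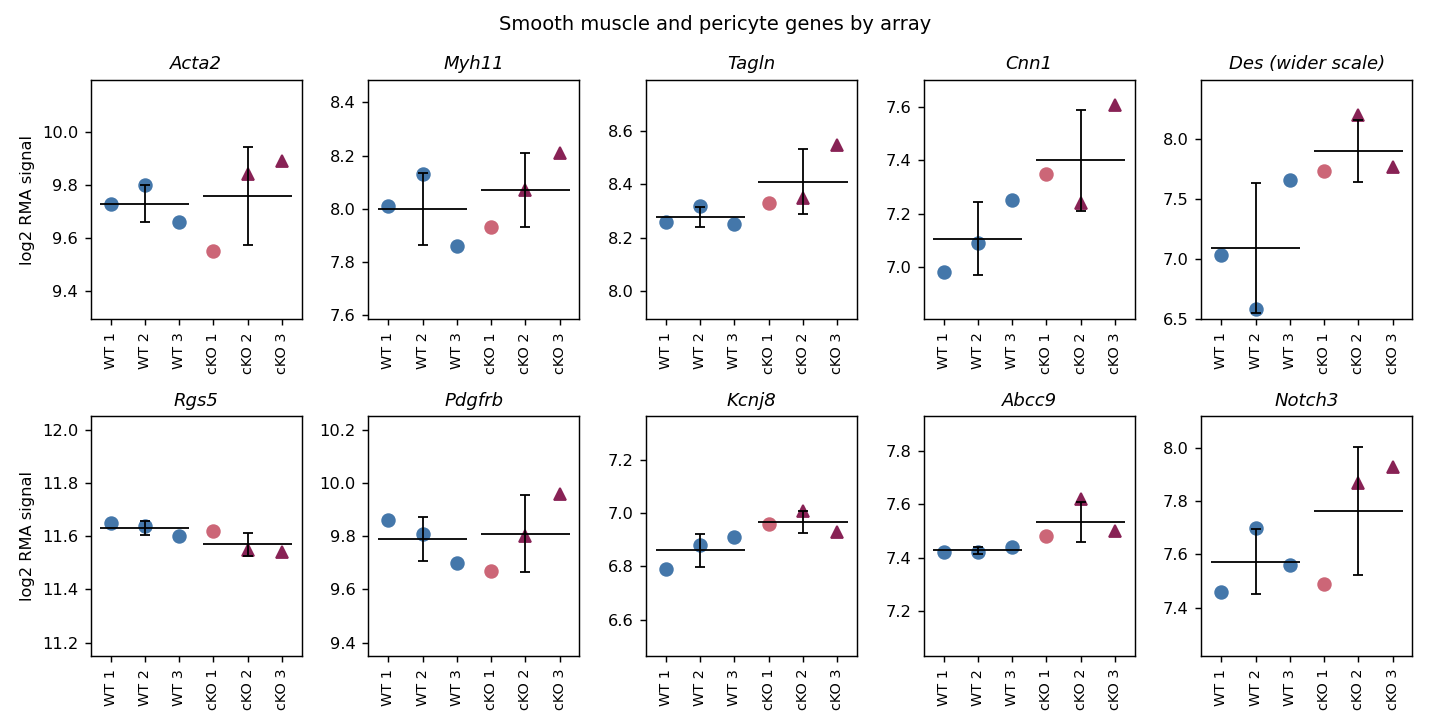
Each panel plots the log2 RMA signal of 1 gene (y axis) in the 3 wild-type (WT, blue) and 3 HDAC4 Nav1.8 cKO arrays (x axis); triangles are the cKO arrays with high Y-linked genes, black lines the group means and bars 1 SD. The panels share the same span except *Des*, whose span is wider and whose wild-type arrays run from 6.58 to 7.66.

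Among the contractile genes, *Acta2*, smooth muscle α-actin, read 9.73, 9.80 and 9.66 in the wild-type and 9.55, 9.84 and 9.89 in the cKO arrays. The lowest and the highest value are both cKO arrays, so the groups overlap, with the wild-type range inside the cKO range. No cKO array lies between the wild-type values, and the log2 fold change was 0.03 ± 0.11 (95% interval -0.23 to 0.29, limma adjusted p = 0.96). *Myh11*, the smooth muscle myosin heavy chain, read 8.01, 8.13 and 7.86 against 7.93, 8.07 and 8.21. It too overlapped, at 0.07 ± 0.11 (95% interval -0.19 to 0.33, limma adjusted p = 0.884). For both genes cKO replicate 1 lay below the wild-type mean and replicate 3 was the highest array, and with sex as a covariate the signs turned, to -0.18 ± 0.10 for *Acta2* and -0.07 ± 0.14 for *Myh11*. The *Myh11* difference was also 0.00 without wild-type replicate 3 or without cKO replicate 3.

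*Tagln*, which encodes the actin-binding protein transgelin (SM22α), read 8.26, 8.32 and 8.25 in the wild-type arrays and 8.33, 8.35 and 8.55 in the cKO arrays. The groups did not overlap, but cKO replicates 1 and 2 lay close above the wild-type ones, and the log2 fold change was 0.13 ± 0.08 (limma adjusted p = 0.737; exact permutation p = 0.1, the smallest that 3 against 3 arrays can give). *Cnn1*, calponin, which binds actin and damps the myosin ATPase, read 6.98, 7.09 and 7.25 against 7.35, 7.24 and 7.61. Here the overlap came to 0.01, between wild-type replicate 3 and cKO replicate 2. The difference of 0.29 ± 0.12 had a 95% interval from 0.00 to 0.59, an unadjusted p of 0.0503 and a limma adjusted p of 0.669, and it was 0.24 ± 0.18 with sex as a covariate.

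The other contractile genes gave a mixed picture. Of 15 measured, 11 lay above and 4 below 0 on the log2 fold change scale (median 0.05), and 0 passed an adjusted p of 0.05. With sex as a covariate 8 were positive, with a median of 0.01. *Actg2*, the second smooth muscle actin, read 6.14, 6.56 and 6.60 in the wild-type and 6.99, 6.70 and 7.11 in the cKO arrays. Every cKO array lay above every wild-type array, with a difference of 0.50 ± 0.16 (limma adjusted p = 0.64) that was 0.56 with sex as a covariate. *Tpm2*, a tropomyosin shared by smooth and skeletal muscle, read 6.91, 6.74 and 7.50 against 7.36, 7.88 and 7.48, a difference of 0.52 ± 0.23 (limma adjusted p = 0.674) in which wild-type replicate 3 lay among the cKO arrays. Lower means were found for *Pln*, which encodes phospholamban, the brake of the sarcoplasmic calcium pump (log2 fold change -0.18), and for *Itga8*, an integrin subunit (-0.22). Both were without overlap, with cKO replicate 1 the lowest array in each.

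Regulators of this program differed in sign as well. Of 10 SRF, myocardin and MEF2 genes, 4 were positive and 6 negative, with a median of -0.04 and 0 at an unadjusted p under 0.05. With sex as a covariate 5 were positive, with a median of -0.01. *Srf* itself read 8.08, 7.80 and 8.06 in the wild-type and 8.10, 8.25 and 8.34 in the cKO arrays, 0.25 ± 0.11 (limma adjusted p = 0.674), whereas *Myocd*, its smooth muscle coactivator, stood at -0.18 ± 0.09 (limma adjusted p = 0.692). Of the MEF2 genes, *Mef2d* had a log2 fold change of 0.17 and *Mef2c* one of -0.12, each without overlap between groups, and *Mef2a* one of -0.11 with overlap. In the fit with sex as a covariate *Srf* stood at 0.12, *Myocd* at -0.04, *Mef2d* at 0.10, *Mef2c* at -0.08 and *Mef2a* at 0.02. Cytoskeletal relatives that are not particular to muscle had log2 fold changes of 0.04 for *Actb*, 0.08 for *Actg1*, 0.06 for *Myh9*, 0.04 for *Myh10*, 0.20 for *Myh14*, 0.12 for *Tagln3*, -0.02 for *Cnn2*, -0.03 for *Cnn3* and -0.11 for *Vim*, and of these *Actg1* and *Tagln3* were higher and *Vim* lower without overlap. *Tagln2*, the broadly expressed transgelin, was 0.26 ± 0.11 (limma adjusted p = 0.678), and its cKO arrays, at 10.45, 10.51 and 10.72, lay above the wild-type ones at 10.44, 10.14 and 10.33. Its difference was 0.15 with sex as a covariate.

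**Figure D2:**
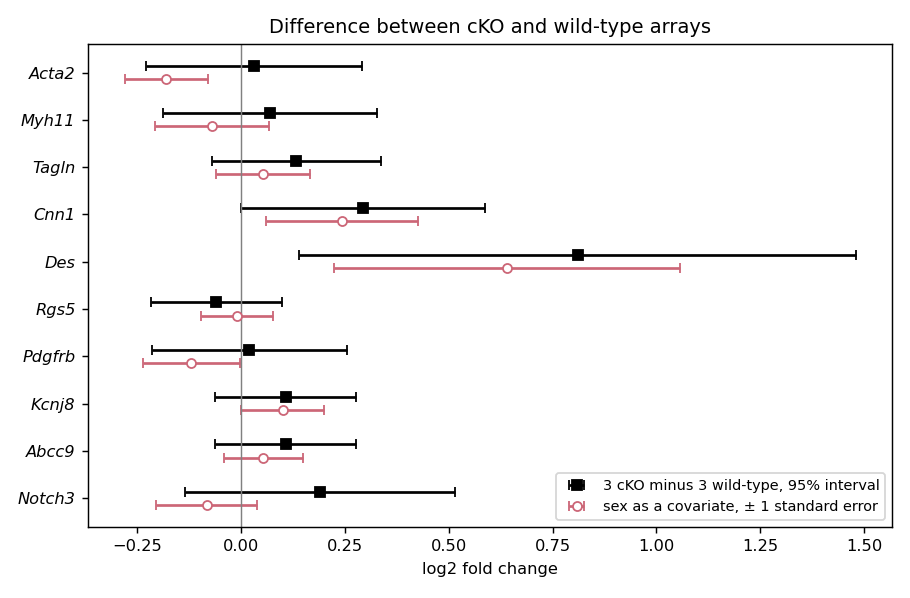
Log2 fold change, cKO minus wild-type (x axis), of the 10 genes (y axis), as black squares with 95% intervals for 3 against 3 arrays and as open circles with 1 standard error for the fit with sex as a covariate. *Des* alone has an interval clear of 0 before adjustment (0.14 to 1.48), and 5 of the 10 estimates are positive once sex is a covariate.

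*Des* encodes desmin, the intermediate filament protein of vascular smooth muscle and pericytes and equally of skeletal and cardiac muscle fibers. It read 7.03, 6.58 and 7.66 in the wild-type and 7.73, 8.20 and 7.77 in the cKO arrays. The wild-type arrays spread over 1.08, more than the difference of the means, and wild-type replicate 3 lay 0.07 below the lowest cKO array. The means were 7.09 ± 0.54 and 7.90 ± 0.26 (SD, n = 3 each), a log2 fold change of 0.81 ± 0.28 or 1.75-fold (95% interval 0.14 to 1.48, unadjusted p = 0.0249, limma adjusted p = 0.645). With *Des* included, 26 of the 22180 genes (0.117%) reached this value. The 18 skeletal muscle markers ran from 0.50 to 2.01 (median 0.96), so several of them are among the 26, as is the Y-linked *Uty* (3.15). The share is therefore no measure for mural genes alone. With sex as a covariate the *Des* difference was 0.64 ± 0.42. Without wild-type replicate 1, wild-type replicate 2 or cKO replicate 2, or with sex as a covariate, its unadjusted p was no longer under 0.05. A second probe set that carries *Des* together with the predicted gene *Gm15179* was flat, at 5.53, 5.52 and 5.71 against 5.65, 5.46 and 5.61.

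*Des* was lowest in wild-type replicate 2 and highest in cKO replicate 2, a pair of extremes that none of the other 4 contractile members shared. *Acta1*, skeletal α-actin, read 8.25, 7.56 and 10.06 in the wild-type and 9.85, 10.44 and 9.75 in the cKO arrays, and *Myh2*, a fast myosin heavy chain, read 6.27, 5.91 and 6.54 against 6.96, 7.57 and 7.83. Both were lowest in wild-type replicate 2, as *Des* was, and *Acta1* was highest in cKO replicate 2 and *Myh2* in cKO replicate 3. Centered on 6 arrays, the mean of the 18 skeletal muscle markers was -0.75, -1.13 and 0.34 in the wild-type and 0.35, 0.94 and 0.26 in the cKO arrays, with the same lowest and highest array as *Des* and with wild-type replicate 3 at the cKO level. The 5 genes most like *Des* over the 6 arrays were *Myot*, *Klhl31*, *Asb10*, *Gm16445* and *Syt1* (Pearson r from 0.990 to 0.994, a description over 6 points that share their arrays, picked from all genes). *Myot* encodes myotilin, a protein of the muscle Z-disc, and *Syt1* encodes synaptotagmin, a calcium sensor of synaptic vesicles. The part of skeletal muscle RNA in the *Des* difference was not tested.

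**Figure D3:**
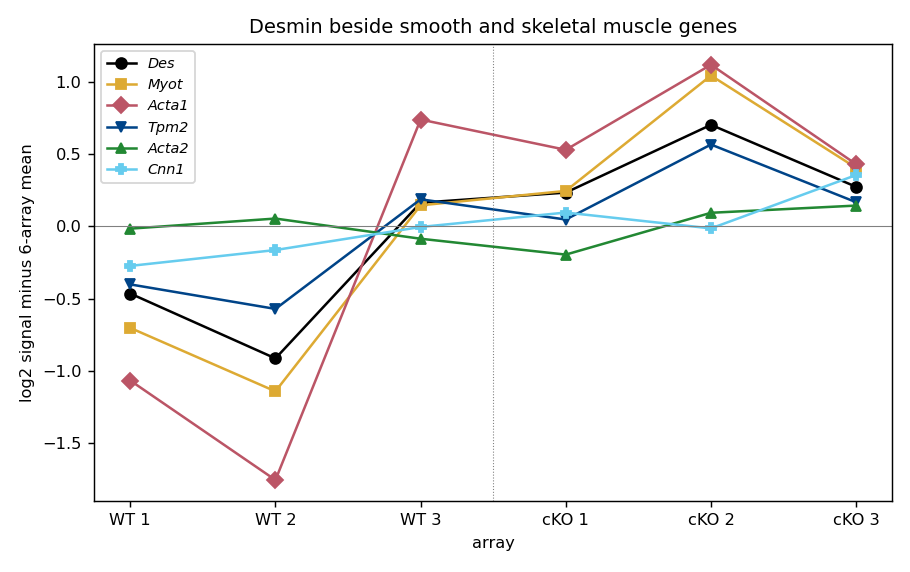
Log2 signal minus the 6-array mean of the same gene (y axis) for *Des*, *Tpm2*, *Acta2* and *Cnn1* and for the skeletal muscle genes *Myot* and *Acta1*, by array (x axis; the dotted line parts wild-type from cKO). *Des*, *Tpm2*, *Myot* and *Acta1* are all lowest in WT 2 and highest in cKO 2, whereas *Acta2* is lowest in cKO 1 and highest in cKO 3. *Myot* was picked for its high correlation with *Des* over these arrays, so its match with *Des* follows from that choice. The skeletal muscle marker *Myh2*, not plotted, is highest in cKO 3.

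Of the pericyte genes, *Rgs5*, a regulator of G protein signaling widely used to mark pericytes, spanned 0.05 over the wild-type and 0.08 over the cKO arrays. It read 11.65, 11.64 and 11.60 in the wild-type and 11.62, 11.55 and 11.54 in the cKO arrays. The difference was -0.06 ± 0.07 (95% interval -0.22 to 0.10, limma adjusted p = 0.837), with cKO replicates 2 and 3 below the other 4 arrays. A second *Rgs5* probe set, set aside because its mean was lower, went the other way, at 8.42, 8.43 and 8.53 in the wild-type and 8.56, 8.62 and 8.75 in the cKO arrays, a log2 fold change of 0.18 ± 0.08 without overlap (limma adjusted p = 0.68), so the 2 probe sets of the gene disagree in sign. Of the 9 measured genes of the R4 family of RGS proteins, 7 were positive, and the only one at an unadjusted p under 0.05 was *Rgs18*, lower at -0.30 ± 0.11 (limma adjusted p = 0.647).

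*Pdgfrb*, the receptor through which pericytes are recruited, read 9.86, 9.81 and 9.70 in the wild-type and 9.67, 9.80 and 9.96 in the cKO arrays. The lowest and the highest array are again cKO replicates 1 and 3, the difference was 0.02 ± 0.10 (95% interval -0.21 to 0.25, limma adjusted p = 0.971), and it was -0.12 ± 0.12 with sex as a covariate. Its ligand gene *Pdgfb* stood at -0.02 ± 0.14, with cKO replicate 1 lowest at 7.42. *Pdgfd*, which encodes another PDGFRβ ligand, was lower without overlap, at 7.09, 7.09 and 7.06 in the wild-type against 6.85, 6.86 and 6.67 in the cKO arrays (-0.29 ± 0.08, unadjusted p = 0.00943, limma adjusted p = 0.64). *Angpt1*, the mural ligand of the endothelial receptor TEK, read 6.80, 6.94 and 6.73 against 6.43, 6.71 and 6.40, also without overlap (-0.31 ± 0.11, limma adjusted p = 0.647). Of the 12 recruitment genes, 9 had a negative and 3 a positive difference (median -0.03), and 0 of 12 were positive with sex as a covariate (median -0.13). The third without overlap was *Pdgfra* (-0.26), which also stands among the fibroblast markers, of which 11 of 15 were negative.

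*Kcnj8* and *Abcc9* encode the pore (Kir6.1) and the sulfonylurea receptor (SUR2) of the vascular KATP channel, and they are neighbors on chromosome 6 of GRCm38.p6, at 142564837 to 142571614 and at 142587862 to 142702766. *Kcnj8* read 6.79, 6.88 and 6.91 in the wild-type and 6.96, 7.01 and 6.93 in the cKO arrays. *Abcc9* read 7.42, 7.42 and 7.44 against 7.48, 7.62 and 7.50. In both genes all cKO arrays, replicate 1 included, lay above the wild-type ones, and cKO replicate 2 was the highest. Their log2 fold changes were both 0.11 ± 0.07 (95% interval -0.06 to 0.28 each), with limma adjusted p values of 0.747 for *Kcnj8* and 0.748 for *Abcc9* and an exact permutation p of 0.1 for each, and with sex as a covariate they were 0.10 ± 0.10 and 0.05 ± 0.10. The subunits of the neuronal and pancreatic form of the channel, *Kcnj11* and *Abcc8*, overlapped between groups, with log2 fold changes of 0.07 and -0.07.

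*Notch3*, the Notch receptor of arterial smooth muscle and pericytes, read 7.46, 7.70 and 7.56 in the wild-type and 7.49, 7.87 and 7.93 in the cKO arrays. Replicates 2 and 3 of the cKO lay above all other arrays and replicate 1 among the wild-type ones, which gave 0.19 ± 0.14 (95% interval -0.14 to 0.52, limma adjusted p = 0.765), and -0.08 ± 0.12 with sex as a covariate. Its ligand gene *Jag1* stood at -0.02 ± 0.11. *Notch1* was 8.87, 8.83 and 8.67 in the wild-type and 8.96, 9.06 and 9.15 in the cKO arrays, and *Notch4* was 7.22, 7.42 and 7.35 against 7.52, 7.54 and 7.52. For these 2 receptors the groups did not overlap, with differences of 0.27 ± 0.09 and 0.20 ± 0.08 (limma adjusted p = 0.641 and 0.655), whereas *Rbpj*, the DNA-binding partner of all Notch receptors, was lower without overlap, at 8.97, 8.96 and 9.06 against 8.70, 8.72 and 8.89 (-0.23 ± 0.08, limma adjusted p = 0.647). Among targets, *Heyl* stood at 0.25, *Nrarp* at 0.21, *Hey2* at 0.09, *Hey1* at 0.03 and *Hes1* at -0.16, all with overlap. Of the 14 Notch pathway genes, 11 were positive and 3 negative, with a median of 0.09, but with sex as a covariate 6 were positive, the median was -0.05 and *Heyl* stood at 0.06.

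Pericyte genes outside the named 10 split between the directions. Of 19 listed, 18 were measured, 11 with a positive and 6 with a negative log2 fold change, and their median was 0.02. With sex as a covariate the balance turned, to 6 of 18 positive and a median of -0.06. *Anpep*, the surface peptidase CD13 of brain pericytes, read 8.53, 8.49 and 8.56 in the wild-type and 8.30, 8.31 and 8.33 in the cKO arrays. This was the 1 gene of the list at an unadjusted p under 0.05, with a log2 fold change of -0.21 ± 0.06 (limma adjusted p = 0.64), and cKO replicate 1 was on the side of the other cKO arrays. *Art3*, an ADP-ribosyltransferase family gene, also had lower cKO values without overlap (-0.25), and *Vtn*, vitronectin, was at -0.29 with overlap. *Cox4i2*, an isoform of a respiratory chain subunit, lay higher without overlap, at 0.12. *Cspg4*, the proteoglycan NG2 that defines pericytes with *Pdgfrb*, stood at 0.10 ± 0.10, and *Mcam*, the adhesion molecule CD146, at 0.02 ± 0.08, both with overlap.

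Across arrays, cKO replicates 2 and 3 stood above cKO replicate 1 in the mean of the 10 genes. Centered on 6 arrays, their mean was -0.11, -0.10 and -0.04 in the wild-type and -0.02, 0.12 and 0.16 in the cKO arrays, and without *Des* it was -0.08, -0.01 and -0.07 against -0.05, 0.06 and 0.14. In this second mean cKO replicate 1 lay among the wild-type arrays. Both arrays with Y-linked signal lay above the other 4 for 5 genes (*Acta2*, *Tagln*, *Des*, *Abcc9* and *Notch3*), against 13.1% of all genes, and below them for *Rgs5*. Compared with the wild-type mean, cKO replicate 1 was higher for 5 of the 10 (*Tagln*, *Cnn1*, *Des*, *Kcnj8* and *Abcc9*), and the median of the 10 log2 fold changes with sex as a covariate was 0.02. The part of sex in these differences was not tested beyond that fit, in which 1 array stands for the cKO without Y-linked signal.

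**Figure D4:**
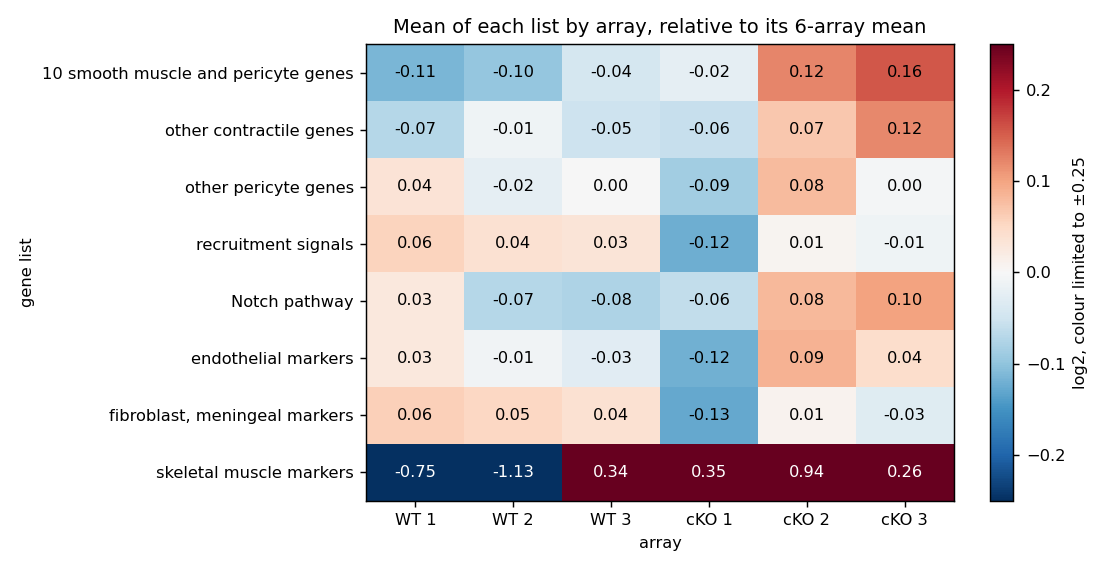
Mean log2 signal of each gene list (rows) relative to its own 6-array mean, by array (columns), printed in each cell and colored from blue (below) to red (above), with the deepest colors also standing for values past the scale. The 10 genes reach 0.12 and 0.16 in cKO 2 and 3, and the skeletal muscle markers run from -1.13 in WT 2 to 0.94 in cKO 2.

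Endothelial markers and fibroblast and meningeal markers were set beside the 10 genes. The 16 endothelial markers had a median of 0.00, with 8 positive and 8 negative (with sex as a covariate -0.09, with 3 positive), and their centered mean was 0.03, -0.01 and -0.03 in the wild-type and -0.12, 0.09 and 0.04 in the cKO arrays. Like *Acta2*, *Pdgfrb* and *Notch3*, this mean was lower in cKO replicate 1 than in replicates 2 and 3. *Plvap*, the protein of fenestral diaphragms, was the endothelial gene at an unadjusted p under 0.05, at 7.58, 7.66 and 7.51 against 7.64, 7.94 and 8.10 (0.31 ± 0.13, limma adjusted p = 0.666). It was 1 of 16, where 2.67% of all genes were higher at that threshold, and its difference was 0.06 with sex as a covariate. The 15 fibroblast and meningeal markers had a median of -0.09 (with sex as a covariate -0.10, with 2 positive). Of these, 5 (*Dcn*, *Pdgfra*, *Fn1*, *Aldh1a2* and *Ogn*) were lower in every cKO array than in every wild-type array, where 7.4% of all genes were. The 5 genes whose pattern over the arrays was most like the mean of the 9 members without *Des* were *Map1a*, *Nubp2*, *Ppp1r10*, *Nrbp1* and *Svbp* (Pearson r from 0.991 to 0.996 over 6 arrays, a description). *Map1a*, which encodes a neuronal microtubule-associated protein, read 11.46, 11.54 and 11.48 in the wild-type and 11.48, 11.61 and 11.68 in the cKO arrays. Its highest values are cKO replicates 2 and 3, which follows from its choice for likeness to that mean.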

How the data were processed

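The authors processed the arrays with oligo and the robust multichip average in R and tested with limma; versions are not given in the sources used here. The deposited values used are log2 signals rounded to 2 decimals; raw intensities and detection calls were not used here. The number of arrays and this rounding limit the precision. Gene names came from the platform annotation, and coordinates and promoter windows from RefSeq (GRCm38.p6).

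All 41345 probe sets were fitted with lmFit and eBayes (R 4.3.3, limma 3.58.1, statmod 1.5.0; genotype as the only term, prior degrees of freedom 2.51) and p values adjusted by Benjamini-Hochberg over all of them. The fit was tested on simulated data. Exact permutation tests were 2-sided, with a smallest p of 0.1. Members and lists were chosen with earlier results of these data known. Besides all members and their partners, up to 4 genes of each list with the smallest p are named, and for *Des* and the mean of the other 9 the 5 genes most like them; further genes were named after their values were seen.

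No pairing by replicate number was seen: same-numbered arrays deviated from their group means with correlations of -0.04, -0.08 and -0.08. Alternatives were cyclic loess, filters on signal and on annotation, trend and robust moderation, array weights, the replicate block, leaving out each array, a sex covariate (taken from *Xist* and the Y-linked genes), another threshold and the mean over probe sets. The RT-qPCR, culture and behavioral experiments were not analysed here.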

Additional observations from a re-analysis of the deposited data

How the results depend on the processing

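With 3 arrays a group, and 1 cKO array without Y-linked signal, small differences in these genes could not be resolved. No member passed an adjusted p of 0.05 (limma), or 0.1, under any alternative; the lowest was 0.372. Of 142 alternative values of single members, 128 kept their direction, 2 were 0 (*Myh11* without wild-type replicate 3 or cKO replicate 3) and 12 reversed, and members with a positive difference numbered 6 in each of these 2 fits. With sex as a covariate, log2 fold changes were -0.18 for *Acta2*, -0.07 for *Myh11*, -0.083 for *Notch3* and -0.12 for *Pdgfrb*, and the median of the members moved from 0.107 to 0.022. Leaving out each array in turn, *Acta2* ran from -0.035 to 0.135 (-0.005 without wild-type replicate 3, -0.01 with cKO replicate 2 left out and -0.035 without cKO replicate 3) and *Pdgfrb* from -0.055 to 0.09 (-0.025 without wild-type replicate 3 and -0.055 with cKO replicate 3 left out). *Rgs5* was 0.062 as the mean over its probe sets, and in choices made after seeing the data 0.183 in its second probe set, as *Des* was -0.013 in the one shared with *Gm15179*. With arrays left out in turn, the median ran from 0.077 to 0.138, *Des* from 0.56 to 1.10, *Cnn1* from 0.19 to 0.37, *Notch3* from 0.107 (without cKO replicate 3) to 0.327 (without cKO replicate 1), *Tagln* from 0.063 (without cKO replicate 3) to 0.173 and *Myh11* from 0 to 0.14 (without cKO replicate 1), and probe sets past an adjusted p of 0.05 numbered 0 to 9, the 9 without cKO replicate 1, when the cKO arrays left are those with Y-linked signal; 0 of them were members. The replicate block left the median at 0.11 and the probe sets past the threshold at 0. At an unadjusted p under 0.05, *Cnn1* joined *Des* under the replicate block, loess, array weights, both filters, trend and robust moderation and without wild-type replicate 3; *Notch3* joined *Des* without cKO replicate 1, *Cnn1* stood alone without cKO replicate 2, and there were 0 without wild-type replicate 1 or 2 or with the sex covariate. The cause of these shifts was not tested.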
